A study of Homo sapiens with 6 samples.

Results

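MicroRNA host transcripts are the long RNAs from which microRNAs are cut, and 5 of them were measured in REH cells, namely MIR99AHG, MIR155HG, MIR17HG, MIR22HG and MIRLET7BHG. Their probes were found as catalogue probes of the array whose RefSeq accession belongs to one of these 5 genes, which gave 8 of the 57176 probes, for 5 of the 19721 genes that the catalogue probes name. REH cells come from a human BCP-ALL (leukemia of B-cell precursors). They express ETV6/RUNX1 from a translocation and, according to the study, have lost the other ETV6 allele. All cells in both groups were transduced with a lentiviral short hairpin RNA (shRNA) vector that also encodes GFP, and GFP-positive cells were sorted. In the knockdown group (3 arrays) the shRNA was directed against the fusion, and in the control group (3 arrays) the shRNA was labelled non-targeting. Per the study's methods, that control vector was itself bought as an ETV6 hairpin and left the fusion transcript in place, and a single hairpin stands for each group. Expression was read on 1-color arrays, and n = 3 per group throughout.

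A primary microRNA transcript is cut in the nucleus by DROSHA with DGCR8, exported by XPO5 and cut again by DICER1, and the mature strand guides Argonaute proteins to messenger RNAs that pair with its seed. The array reads the long host RNA. Mature microRNAs were not measured, and a host level need not follow that of its microRNAs. MIR99AHG carries miR-99a, let-7c and one of the miR-125b genes, MIR155HG (also known as BIC) carries miR-155, known from activated B cells, MIR17HG carries the miR-17 to miR-92a cluster, known as a MYC target amplified in lymphomas, MIR22HG carries miR-22, and MIRLET7BHG carries let-7a and let-7b genes.

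The 5 hosts held 30 mature microRNAs in the RefSeq table used here (GRCh38.p14), with 24 different seeds. The guide strands named most often for each host are printed to show which hosts share a seed. Bases 2 to 8, the seed, are in capitals, and sequences run 5′ to 3′. The first group carries the let-7 seed, which MIR99AHG and MIRLET7BHG have in common, and which 11 mature human microRNAs in the table carry:
hsa-let-7c-5p: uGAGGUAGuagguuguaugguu
hsa-let-7b-5p: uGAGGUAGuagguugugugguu
hsa-let-7a-5p: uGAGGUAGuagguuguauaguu
MIR99AHG holds these others:
hsa-miR-99a-5p: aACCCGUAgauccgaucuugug
hsa-miR-125b-5p: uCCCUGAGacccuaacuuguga
MIR17HG holds 6 guide strands with 4 different seeds, since miR-17 and miR-20a share one and miR-19a and miR-19b share another:
hsa-miR-17-5p: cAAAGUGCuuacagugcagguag
hsa-miR-20a-5p: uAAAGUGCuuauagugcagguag
hsa-miR-18a-5p: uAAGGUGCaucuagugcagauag
hsa-miR-19a-3p: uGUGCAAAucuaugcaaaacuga
hsa-miR-19b-3p: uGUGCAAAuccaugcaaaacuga
hsa-miR-92a-3p: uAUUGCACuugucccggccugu
MIR155HG and MIR22HG hold these, with seeds that no other human microRNA in the table carries:
hsa-miR-155-5p: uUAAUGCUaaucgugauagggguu
hsa-miR-22-3p: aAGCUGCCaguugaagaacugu

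On GRCh38.p14, miR-99a-5p lies at chr21:16539101-16539122, let-7c-5p at chr21:16539838-16539859 and miR-125b-5p of this host at chr21:16590253-16590274, all on the plus strand within MIR99AHG. MiR-155-5p lies on the same chromosome, at chr21:25573983-25574006 on the plus strand. The MIR17HG cluster runs from miR-17-5p at chr13:91350618-91350640 to miR-92a-3p at chr13:91351361-91351382, on the plus strand. MiR-22-3p lies at chr17:1713914-1713935 on the minus strand. MiR-125b-5p, miR-19b-3p and miR-92a-3p each have a second genomic copy elsewhere, and let-7a-5p has 3 copies, so that a host is not the only source of these strands. Since the fusion keeps the DNA-binding part of RUNX1, the promoter windows of the hosts were searched for the RUNX letters TGTGGT and TGCGGT on both strands. Of 35116 RefSeq promoter windows, 19.6% held a match. Among the 10 windows of the 5 hosts, 6 of them for MIR99AHG, the window of MIR17HG held 1 match (TGCGGT) and the other windows held none. The E-box CACGTG, the letters that MYC is known to bind, was in 7.26% of all windows and in none of the 10 host windows. A match is a string of letters and not a measured binding site, and a window without one says nothing about the factor.

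Across arrays, the median raw intensity lay between 66 and 75, and that of the negative control spots between 42.3 and 48.0. For ETV6, the gene the shRNA is directed against, 1 probe lay above background (A_33_P3356325) and measured 7.91, 8.05 and 8.37 in control and 7.49, 7.45 and 7.28 in knockdown. This difference of -0.70 on the log2 scale had a limma adjusted p of 0.0513. Where this probe lies relative to the fused portion of ETV6 was not analysed here, so whether it reads the fusion transcript is not known. The study followed the silencing of the fusion by western blot and RT-qPCR, which are not part of these arrays. B-cell precursor markers fitted the cell line label, with 14 of 15 flagged well above background by the scanner software on all arrays. Of the 14 retained, 11 had a higher mean in knockdown, with a median of 0.19, and their mean level per array ran from 13.20 to 13.24 in control and from 13.36 to 13.53 in knockdown. None was called by limma, 6 had an unadjusted p under 0.05 (13.7% of all genes tested) and 6 had no overlap between groups (20.8%). RAG2 was in both of these sets but lower in knockdown, with a log2 fold change of -0.44 (limma adjusted p = 0.191). The part of the shift of these markers in the host values was not tested. CD22 came nearest to a call with a log2 fold change of 0.67 (limma adjusted p = 0.0541) and was called in 5 of 17 alternatives. With the replicate number as a block, CD22, CD79B and IGLL1 were called higher, with limma adjusted p from 0.0264 to 0.0379. T cell, myeloid and erythroid or megakaryocyte markers were well above background on all arrays for 3 of 8, 4 of 8 and 3 of 7 genes with a probe. CD3G, CD33, S100A8, S100A9, ELANE, HBB, PF4 and PPBP were well above background on none of the arrays, while the myeloid gene MPO measured 14.02, 13.97 and 13.86 in control and 12.30, 11.68 and 11.81 in knockdown and was called lower. Mean levels per array of the 4 retained myeloid markers ran from 8.96 to 9.07 in control and from 8.35 to 8.73 in knockdown. Without MPO, the mean of the other 3 ran from 7.28 to 7.45 and from 7.24 to 7.54. The part of these cells in the values below was not tested. Fewer cells of a type and less RNA per cell cannot be told apart in such bulk samples.

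First, the level of each host transcript was set against background. Values are given on a generalised log2 scale, made by variance stabilization, which is close to log2 where the signal is strong and compresses the changes of dim probes. A threshold was set at 1.1 times the 0.95 quantile of negative controls, and a probe was retained where it exceeded this on 2 or more of the 3 arrays of a group. Of the 8 host probes, 7 were retained, compared with 63.3% of catalogue probes, and each of the 5 genes kept at least 1 probe. MIR17HG gave the strongest signal over background, with raw intensities from 810 to 1464, that is 18.0 to 32.6 times the median negative control of the same array. The main MIRLET7BHG probe read 281 to 487, MIR22HG 214 to 317, and the MIR99AHG probes A_24_P229536 and A_33_P3312384 read 162 to 263 and 124 to 223. MIR155HG lay close to background, with raw intensities from 71.0 to 180.0, although it was over the threshold and well above background on all 6 arrays. The second MIRLET7BHG probe (A_33_P3345479) read 70.0 to 93.0 and missed the threshold on 1 control array. The third MIR99AHG probe (A_33_P3406886), at 43.0 to 54.0, stood well above background on none of the arrays and gave no comparison. Different probes bind with different strength, so these values rank signal over background and not the amounts of the RNAs.

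**Figure D1:**
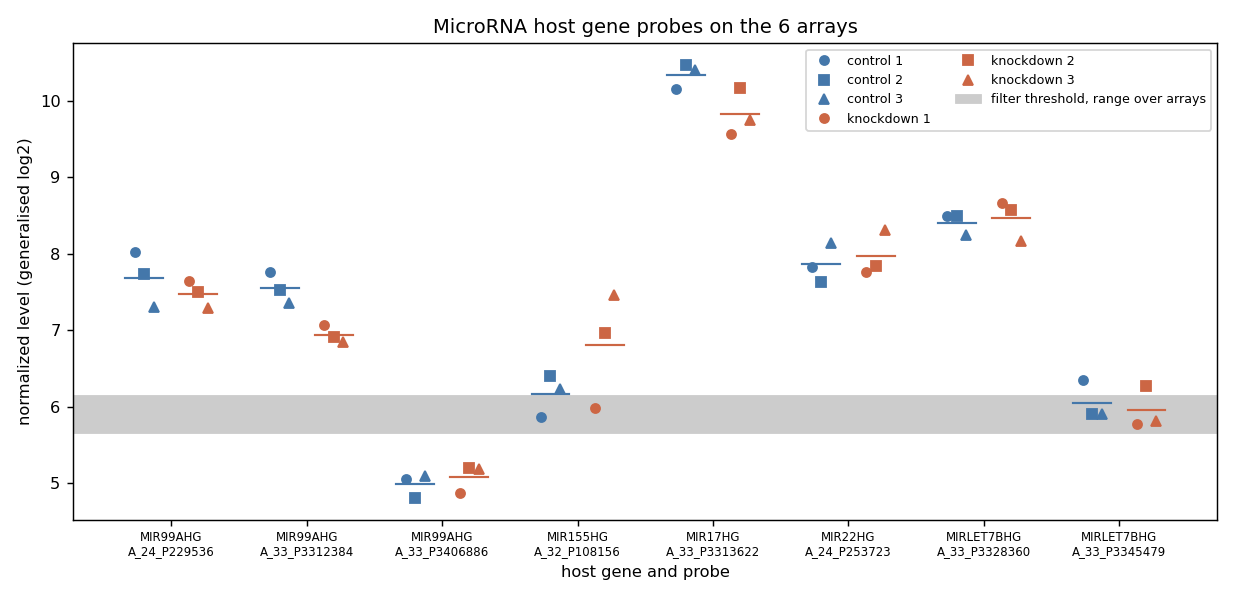
Normalized level (vertical axis, generalised log2) of the 8 host probes (horizontal axis) on the 3 control arrays (blue) and 3 knockdown arrays (orange), with short lines at group means and symbols for replicate numbers. The grey band spans the filter threshold of the 6 arrays. MIR17HG lies far above the band, A_33_P3406886 of MIR99AHG below it, and the groups are apart only for A_33_P3312384.

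Next, knockdown was compared with control, to ask whether the host transcripts change when the fusion is silenced. None of the 7 retained host probes was called by limma at an adjusted p under 0.05, where 1.74% of all 27490 retained probes were (1.28% lower and 0.458% higher). At an unadjusted p under 0.05 there were 2 of 7, against 12.5% of all retained probes. A total of 4 host probes had a lower mean and 3 a higher mean in knockdown. Their median log2 fold change was -0.098, compared with -0.0015 over all retained probes. The number of host probes with no overlap between groups was 1 of 7, lower in knockdown, against 18.9% of all retained probes (9.86% lower and 9.01% higher). With 3 arrays per group, an exact two-sided permutation test of one probe cannot give a p under 0.1.

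Among the retained host probes, A_33_P3312384 of MIR99AHG had the lowest p-value, although it is not the reference probe of the gene. By reference probe, MIR17HG was lowest (limma unadjusted p = 0.0159, against 0.291 for MIR99AHG). Probe A_33_P3312384 measured 7.77, 7.53 and 7.36 in control and 7.07, 6.91 and 6.85 in knockdown. Every knockdown array lay below every control array. The log2 fold change was -0.61 (SE 0.13, 95% interval -0.91 to -0.31), a 1.53-fold lower level, with a limma adjusted p of 0.0721 and an exact permutation p of 0.1, the smallest possible. It was lower in 3 of 3 pairs of equal replicate number. With the replicate number as a block this probe was called (limma adjusted p = 0.0196), and 1038 probes in place of 478 were called across the array. It missed the threshold in each of the other 16 alternatives, although its direction was the same in all of them. Under scaling on the spike-in probes, which raised the log2 fold change of every retained host probe by the same 0.36, it was -0.25. Control replicates 1 and 2 lay in the first slide row and the other arrays in the second. With slide row as a term, each fold change therefore sets the knockdown arrays against control replicate 3 alone, which is assumed to vary like the other arrays, and for this probe it was -0.42 (limma adjusted p = 0.644).

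The reference probe of MIR99AHG, A_24_P229536, which had the higher mean level of the retained pair, measured 8.02, 7.73 and 7.31 in control and 7.64, 7.50 and 7.29 in knockdown. Control replicates 1 and 2 were the highest, and the groups overlapped. The log2 fold change was -0.21 (SE 0.19, 95% interval -0.64 to 0.22) with a limma adjusted p of 0.697 and an exact permutation p of 0.4. It was lower in 3 of 3 pairs. With slide row as a term it was 0.17, where control replicate 3, the lowest control array, is the only control compared. Both probes thus had a lower mean in knockdown, but by unequal amounts. With the probes averaged before the test, the gene had a log2 fold change of -0.41 (limma adjusted p = 0.320).

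The difference between the retained MIR99AHG probes within each array was examined after their values were seen. A_24_P229536 minus A_33_P3312384 was 0.25, 0.20 and -0.05 in control and 0.57, 0.59 and 0.44 in knockdown. All knockdown arrays lay above all control arrays. Group means were 0.13 ± 0.16 (SD, n = 3) and 0.54 ± 0.08 (SD, n = 3), a difference of 0.40, given as a description with no test because the unequal changes prompted it. The probes were designed on different RefSeq transcripts of the gene, NR_027791 and NR_027790, and which exons they read was not analysed here.

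**Figure D2:**
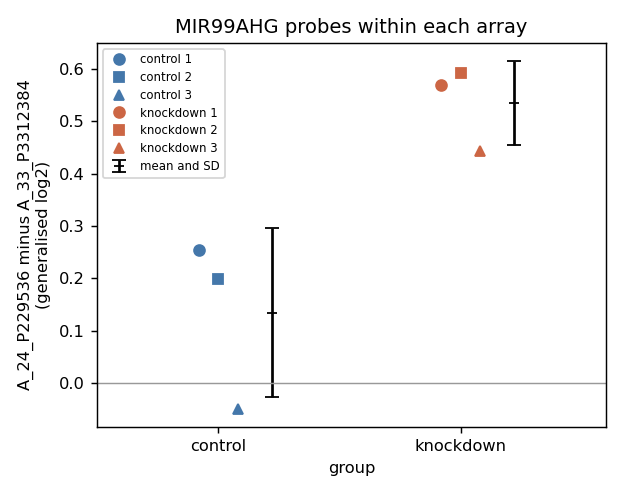
Difference between the MIR99AHG probes A_24_P229536 and A_33_P3312384 (vertical axis, generalised log2) on each control and knockdown array (horizontal axis), with mean and SD in black. The knockdown arrays sit between 0.44 and 0.59, all above the control arrays, which run from -0.05 to 0.25.

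MIR17HG, the host of the miR-17 to miR-92a cluster, measured 10.16, 10.47 and 10.40 in control and 9.56, 10.17 and 9.75 in knockdown (probe A_33_P3313622). Knockdown replicate 2 just exceeded control replicate 1, so the groups overlapped by these arrays alone. The log2 fold change was -0.51 (SE 0.17, 95% interval -0.90 to -0.12), 1.43-fold lower, with a limma unadjusted p of 0.0159, an adjusted p of 0.245 and an exact permutation p of 0.2. It was lower in 3 of 3 pairs and in all 18 alternatives, with -0.15 under the spike-in scaling. It was called in none of them, with adjusted p from 0.0560 under the replicate block to 0.693 with slide row as a term. MYC, the transcription factor known to drive this host, had a log2 fold change of -0.18 (limma adjusted p = 0.482).

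MIR155HG was the least reproducible host among knockdown arrays. It measured 5.87, 6.40 and 6.24 in control and 5.99, 6.96 and 7.46 in knockdown (probe A_32_P108156). Knockdown replicate 1 lay within the control range, while knockdown replicates 2 and 3 lay above it. Compared within replicate numbers, it was higher in 3 of 3 pairs, by 0.12, 0.56 and 1.22. The SD was 0.27 in control and 0.75 in knockdown, and the knockdown value exceeded that of 98.4% of the 2790 retained probes whose mean level lay within 0.25 of this one. The log2 fold change was 0.64 (SE 0.34, 95% interval -0.14 to 1.41) with a limma adjusted p of 0.499 and an exact permutation p of 0.3. Without knockdown replicate 1 it was 1.04 (limma adjusted p = 0.0539) and without knockdown replicate 3 it was 0.31 (limma adjusted p = 0.808). It was called in 1 of 18 alternatives, scaling on spike-in probes (1.00, limma adjusted p = 0.00381). That scaling rests on 6 spike-in probes and moved the median of all retained probes to 0.36, so that the difference relative to the array was as large as before.

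MIR22HG did not pass the test. It measured 7.83, 7.63 and 8.14 in control and 7.76, 7.84 and 8.31 in knockdown (probe A_24_P253723). Replicate 3 was the highest array in each group, and the groups overlapped. The log2 fold change was 0.10 (SE 0.18, 95% interval -0.32 to 0.52) with a limma adjusted p of 0.861 and an exact permutation p of 0.6. Its sign turned in 3 of 18 alternatives, slide row as a term (-0.17) and leaving out control replicate 2 (-0.014) or knockdown replicate 3 (-0.065).

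MIRLET7BHG was read by a pair of retained probes with opposite signs. The reference probe A_33_P3328360 measured 8.49, 8.49 and 8.24 in control and 8.66, 8.58 and 8.16 in knockdown, with knockdown replicate 3 the lowest array and replicates 1 and 2 the highest. Its log2 fold change was 0.06 (SE 0.15, 95% interval -0.29 to 0.41, limma adjusted p = 0.912). The dimmer probe A_33_P3345479 measured 6.35, 5.90 and 5.91 in control and 5.78, 6.27 and 5.81 in knockdown. Control replicate 1 and knockdown replicate 2 were high and the groups overlapped. Its log2 fold change was -0.10 (SE 0.18, 95% interval -0.51 to 0.31, limma adjusted p = 0.865). Each probe changed sign in 3 alternatives. For comparison, the smallest change among the 478 called probes was 0.49 on the log2 scale.

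**Figure D3:**
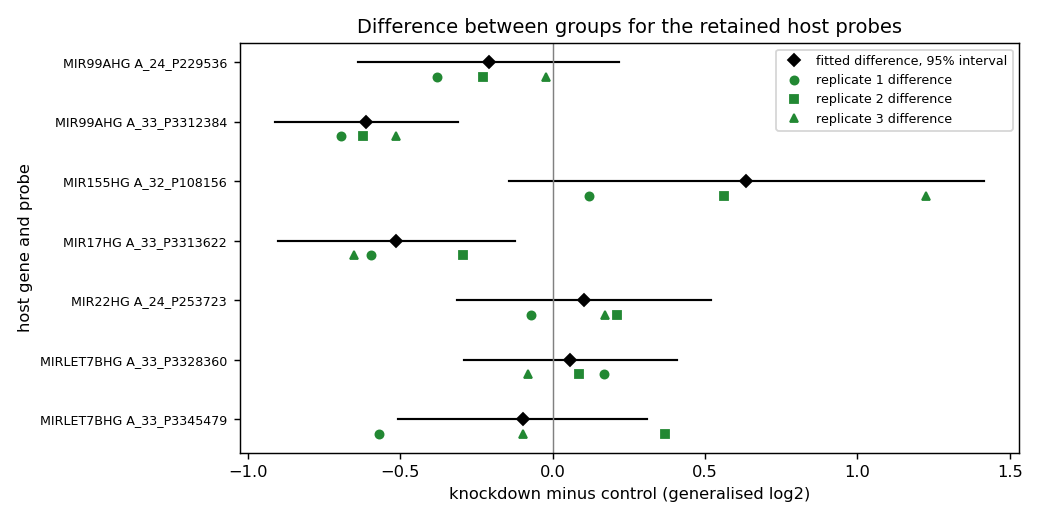
Knockdown minus control (horizontal axis, generalised log2) for the 7 retained host probes (vertical axis). Diamonds and lines give the fitted difference with its 95% interval, and green symbols give the difference between arrays of equal replicate number. The intervals of A_33_P3312384 of MIR99AHG and of MIR17HG lie below 0, and the others span 0.

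Other transcripts that carry microRNAs were then examined. Of 51 other non-coding hosts listed, 18 had a catalogue probe and 10 were retained. None was called by limma (1.96% of all genes tested), none had an unadjusted p under 0.05 (13.7%), and the median log2 fold change was 0.086. MIR9-2HG had the lowest p, with a log2 fold change of 0.15 (limma adjusted p = 0.580), followed by MIR9-3HG with 0.20 and MIR503HG with -0.12. MIR100HG, which hosts the miR-100, let-7a and miR-125b paralogs of the MIR99AHG cluster, stood well above background on none of the arrays. Among 39 retained protein-coding hosts, 1 was called, where 1.96% of the 13645 genes tested by their reference probe were. CLCN5, a chloride channel gene that hosts a microRNA cluster on the X chromosome, measured 6.94, 7.07 and 6.90 in control and 7.45, 7.46 and 7.55 in knockdown. Its knockdown arrays all lay above control, and it rose by 0.52 on the log2 scale (SE 0.10, limma adjusted p = 0.0445), a call kept in 4 of 17 alternatives and ended by leaving out any 1 of the 6 arrays (adjusted p from 0.0577 to 0.177). The imprinted gene MEST (-0.42, limma adjusted p = 0.198) and EGFL7, host of miR-126 (-0.30, limma adjusted p = 0.332), did not pass.

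Genes of microRNA processing and turnover were nearly all expressed above background, with 28 of 30 retained. One of them, TRIM71, passed the filter through the knockdown group alone and is left out of the next counts in this paragraph. Of the other 27, none was called by limma (1.96% of all genes tested) and 0 had an unadjusted p under 0.05 (13.7% of all genes tested). A total of 14 had a lower and 13 a higher mean in knockdown, with a median of -0.017 compared with 0.0060 over all genes tested. DICER1 had a log2 fold change of -0.22 (limma adjusted p = 0.429) and DGCR8 of 0.23 (limma adjusted p = 0.437). TRIM71, a let-7 target that acts with Argonaute, measured 5.38, 5.26 and 5.41 in control and 5.86, 6.68 and 5.80 in knockdown. The probe was well above background and over the threshold on the 3 knockdown arrays and on none of the control arrays, so it entered the test only through the group where it was high, and its p is not read as a result. With control values raised where they lay under the lowest signal well above background, its knockdown mean was 1.66-fold higher. This is a description with no test, and knockdown replicate 2 was the highest array. LIN28A was well above background on none of the arrays and LIN28B on 1, so neither of these let-7 inhibitors gave a comparison.

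Messenger RNAs known as targets of the hosted microRNAs were also counted. Their lists were chosen with earlier results of these data known, so the shares do not measure an excess among targets. Of 76 target genes over 4 lists, 72 were retained, TRIM71 among them. Of these, 3 were called lower and none higher, where 1.96% of all genes tested were called in either direction. Without TRIM71, an unadjusted p under 0.05 was found for 11 of 71, against 13.7% of all genes tested. A total of 41 of these 71 had a lower and 30 a higher mean in knockdown, with a median of -0.044. Among targets of let-7, miR-99 and miR-125, 2 of 29 were called lower, with TRIM71 included in the 29. Without TRIM71 the median was -0.12, an unadjusted p under 0.05 was found for 7 of 28, and 12 of 28 had no overlap between groups, against 13.7% and 20.8% of all genes tested. PRDM1 (BLIMP1, the regulator of plasma cell differentiation) measured 7.63, 7.99 and 7.70 in control and 6.00, 6.21 and 6.27 in knockdown. The groups were far apart, and it fell by 1.61 on the log2 scale (SE 0.13, limma adjusted p = 0.00109), a call kept in all 17 alternatives. CCND2, the gene of cyclin D2, measured 10.05, 9.32 and 8.95 in control and 7.93, 6.70 and 6.69 in knockdown. It fell by 2.33 on the log2 scale (SE 0.38, limma adjusted p = 0.0250) with replicate 1 the highest array of each group, a call kept in 9 of 17 alternatives. It was lost without control replicate 1 or 2 or without knockdown replicate 2 or 3, with adjusted p from 0.0589 to 0.124. IGF2BP1, an oncofetal RNA-binding protein gene and let-7 target, had -0.58 (limma adjusted p = 0.149, and 0.0431 with the replicate block).

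For targets of the miR-17 to miR-92a cluster, none of 18 was called by limma, none had an unadjusted p under 0.05, and the median was -0.0073. STAT3 (-0.31) and SMAD4 (-0.38) had the lowest p-values, each with a limma adjusted p of 0.437. For miR-155 targets, none of 17 was called by limma and 3 had an unadjusted p under 0.05, against 13.7% of all genes tested. SPI1, which encodes the transcription factor PU.1, measured 11.01, 11.10 and 11.13 in control and 11.92, 11.54 and 11.47 in knockdown. All of its knockdown arrays lay above control, with a log2 fold change of 0.57 (limma adjusted p = 0.103). ETS1 had -0.35 (limma adjusted p = 0.175) and the p53-induced gene TP53INP1 had -0.39 (limma adjusted p = 0.324). For miR-22 targets, 1 of 11 was called, against 1.96% of all genes tested. MECOM, which encodes the transcription factor EVI1, measured 9.52, 9.48 and 9.41 in control and 8.29, 8.19 and 8.08 in knockdown. It fell by 1.28 on the log2 scale (SE 0.10, limma adjusted p = 0.00101), a call kept in all 17 alternatives, and MIR22HG itself did not pass the test.

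Among 25 retained genes listed as regulators of these hosts, 2 were called lower, against 1.96% of all genes tested in either direction, and ETV6, the gene the shRNA is directed against, stands in this list. Without it, 9 of 24 had an unadjusted p under 0.05, against 13.7%, and the groups were apart for 11 of 24, against 20.8%. This list was chosen with earlier results of these data known, so these shares do not measure an excess among regulators. JUN, a subunit of AP-1, which is known to act on the MIR155HG promoter, measured 7.51, 7.51 and 7.02 in control and 5.64, 5.89 and 5.96 in knockdown. It was well above background on 2 of 3 knockdown arrays, with knockdown replicate 1 under the threshold. It fell by 1.52 on the log2 scale (SE 0.16, limma adjusted p = 0.00361), a call kept in all 17 alternatives. STAT5A, a transcription factor of cytokine signalling, measured 8.55, 8.87 and 8.70 in control and 8.13, 7.88 and 7.98 in knockdown. It fell by 0.71 (SE 0.12, limma adjusted p = 0.0286), a call kept in 9 of 17 alternatives and ended without control replicate 2 or 3 or knockdown replicate 2 or 3 (adjusted p from 0.103 to 0.138). Spike-in scaling, among others, also ended the call, with a log2 fold change of -0.35 (limma adjusted p = 0.289). FOS, the partner of JUN in AP-1, had -0.55 (limma adjusted p = 0.0747). The 5 RUNX1 probes ran from -0.26 to 0.03 and none was called.

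**Figure D4:**
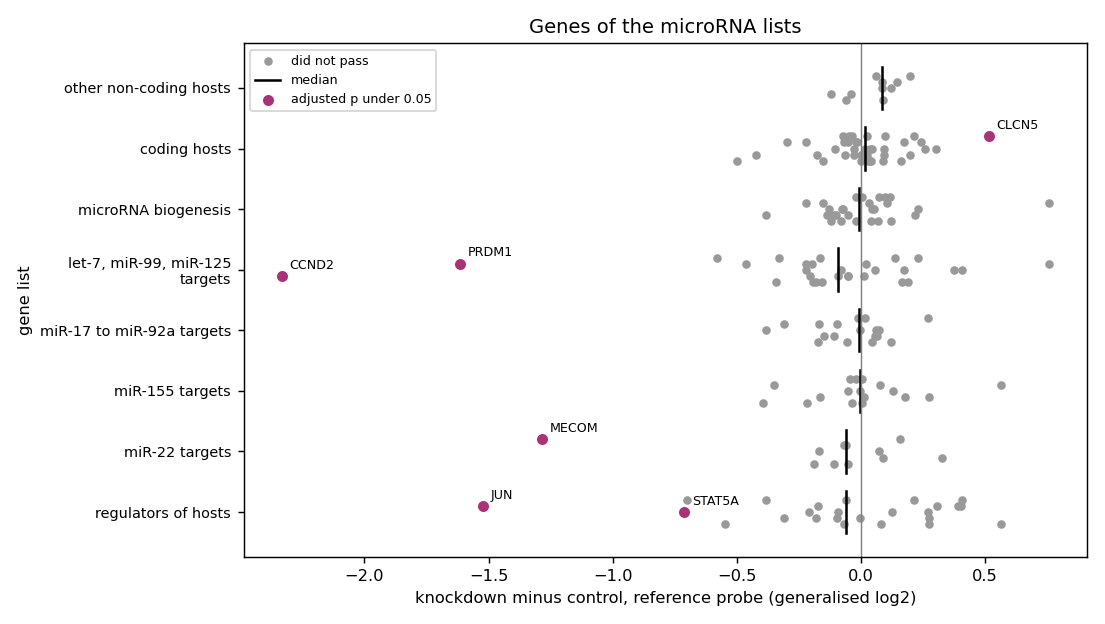
Knockdown minus control (horizontal axis, generalised log2) for the retained genes of 8 lists (vertical axis), each by its reference probe, with called genes in purple and list medians as black lines. Medians over all retained genes of a list, TRIM71 and ETV6 included, lie between -0.091 and 0.086, and the called genes are PRDM1, CCND2, MECOM, JUN and STAT5A, all lower, and CLCN5, higher. A gene can stand in more than 1 list.

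Finally, the protein-coding genes next to each host in RefSeq order, up to 3 on each side and any that overlap it, were compared. Of 31 neighbours, 27 had a probe, 19 were retained and 1 was called, where 1.96% of all genes tested were. At an unadjusted p under 0.05 there were 3 of 19, against 13.7% of all genes tested. SAMSN1, the gene of a lymphocyte adaptor protein, is the third neighbour before MIR99AHG and measured 12.64, 12.92 and 12.76 in control and 12.26, 12.24 and 12.07 in knockdown. It fell by 0.58 on the log2 scale (SE 0.11, limma adjusted p = 0.0478) with no overlap between groups. This call lay at the threshold and was kept in 4 of 17 alternatives. It was lost with the deposited log2 values (adjusted p = 0.0626), with slide row as a term (0.370) and under spike-in scaling (-0.22, adjusted p = 0.462), among others. Leaving out any 1 of the 6 arrays ended it, and adjusted p then lay between 0.0584 (knockdown replicate 1 left out) and 0.225 (control replicate 2 left out). The genes nearer to MIR99AHG on that side, USP25 (-0.02) and NRIP1 (-0.19), did not pass. SLITRK5 beside MIR17HG (-0.48, limma adjusted p = 0.165) and CDPF1 beside MIRLET7BHG (0.34, limma adjusted p = 0.148) had the next lowest p-values. Around MIR155HG, the retained neighbours NCAM2, CHODL, MRPL39, JAM2 and ATP5PF ran from -0.07 to 0.02. Around MIR22HG, PRPF8, RILP, WDR81 and SERPINF1 ran from -0.31 to 0.17. After MIR99AHG, BTG3 (0.07) and C21orf91 (-0.20) did not pass, nor did DCT (-0.20) after MIR17HG or ATXN10 (0.09) and PPARA (0.33) beside MIRLET7BHG. CXADR, TMPRSS15, GPC5, GPC6, TLCD2, SERPINF2, WNT7B and PKDREJ were not retained.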

How the data were processed

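RNA was labelled with Cy3 (1 color, per the labels), and the authors extracted spot intensity values with Agilent Feature Extraction 10.7.1.1. The deposited intensity values were not normalized between arrays. A second table, deposited by the authors, holds normalized log2 values of these arrays and served as an alternative. The study's methods name VSN, background subtraction, a filter against negative controls and limma. Here the VSN model (affine calibration per array, inverse hyperbolic sine, 0.9 quantile of least squares kept) was written anew and fitted to raw median intensities. Outlier spots were left out and spots of a probe averaged. The negative control threshold was first applied to raw intensity and then moved to normalized values with both results in view, because the retained set then came close to that of the deposited table. The raw version is kept as an alternative.

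The comparison used limma 3.58.1 under R 4.3.3 (two-sided, no block) with Benjamini-Hochberg adjustment over all retained probes, and "called" means an adjusted p under 0.05. The reference probe of a gene is the retained one with the highest mean. The study calls its replicates biological. Deviations of equal replicate numbers correlated with r = 0.426, 0.287 and 0.204 across probes, and those of unequal numbers ran from -0.33 to 0.19. Since every equal pair exceeded 0.1, the numbers were taken to pair the samples, although replicates 2 and 3 are hardly told apart by this. The block stayed an alternative because the study's methods name none. Accessions gave a symbol for 25728 of 34134 catalogue probes through a RefSeq table of a later build than the array design. All host probes are named, with the called or 3 lowest-p genes of each list. All neighbours with a probe are named too. Some genes that this rule names are not reported here. MYC, LIN28A, LIN28B, MIR100HG, IGF2BP1, FOS, MEST and EGFL7 stand outside this rule and were chosen after their values were seen. Members and lists were chosen with earlier results of these data known. The fit was tested on simulated data, where unchanged probes made up a larger share of the calls than the nominal rate of the adjustment, for a reason not found. Calls close to the threshold are to be read with this in mind.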

Additional observations from a re-analysis of the deposited data

How the results depend on the processing

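The count of called host probes stayed at 0 except under the replicate block (1, MIR99AHG lower) and spike-in scaling (1, MIR155HG higher, log2 fold change 1.00). Leaving out any single array gave 0 throughout. Over the whole array, the count of 478 called probes became 1038 with the replicate block, 1050 under spike-in scaling (150 lower and 900 higher, against 352 and 126), 224 with no filter and 227 with slide row as a term. With 1 array left out, it ranged from 191 (control replicate 2) to 553 (knockdown replicate 1), and was 282 without control replicate 1, 258 without control replicate 3, 214 without knockdown replicate 2 and 205 without knockdown replicate 3. Under spike-in scaling limma gave all host probes the same SE of 0.25.

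Directions were kept in all alternatives for MIR17HG, MIR155HG and A_33_P3312384 of MIR99AHG. Spike-in scaling raised every retained host probe by the same 0.36, which by construction took the MIR99AHG reference probe to 0.15 and the dimmer MIRLET7BHG probe to 0.26. The MIR99AHG reference probe turned to 0.17 with slide row as a term. MIR22HG turned to -0.17 with slide row as a term. MIRLET7BHG turned to -0.020 with its probes averaged, and its dimmer probe to 0.049 with slide row as a term. With one array left out, the fold changes ran from -0.40 to -0.042 and from -0.71 to -0.50 for the MIR99AHG probes, from 0.31 to 1.04 for MIR155HG, from -0.68 to -0.38 for MIR17HG, from -0.065 to 0.24 for MIR22HG, and from -0.039 to 0.21 and from -0.26 to 0.050 for the MIRLET7BHG probes. Slide row as a term leaves control replicate 3 as the only control compared. None of these changes of direction passed the test, and apart from spike-in scaling the cause was not tested. The replicate block changed no other host call. The threshold on raw intensity was added after seeing the data and changed no host call. MIR155HG and the dimmer MIRLET7BHG probe lie near background, where this scale understates changes.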

Other observations

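For each host, the genes whose reference probe followed it most closely over the 6 arrays were listed among 13606 genes, as a description in which all genes share the same arrays and their quality. MIR99AHG was followed by TMEM170B (r = 0.991), ELMO2 and ZDHHC8, and MIR155HG by EGLN2 (r = 0.996), MUSK and FBXL18. MIR17HG was followed by ZNF92 (r = 0.995), DNAJC2 and MRPS25, MIR22HG by ZNF436-AS1 (r = 0.992), ZBTB49 and WTIP, and MIRLET7BHG by SPICE1 (r = 0.992) and DLST. Between 56 genes for MIR22HG and 396 for MIR155HG had r over 0.9. Among the hosts themselves, r ran from -0.88 between MIR22HG and MIRLET7BHG to 0.62 between MIR99AHG and MIRLET7BHG.

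FGF13, a protein-coding host gene singled out after its values were seen, measured 5.70, 5.83 and 7.25 in control and 5.70, 5.86 and 5.72 in knockdown. Control replicate 3 alone was high. The log2 fold change of FGF13 was -0.50 (limma adjusted p = 0.637). With slide row as a term, where that array is the only control compared, it was -1.49.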
